A study of Mus musculus with 24 samples.

Results

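The comparison of the iron-manganese alloy with no metal used 12 of the 24 arrays of the series: 6 from cells kept under powder of the Fe-35Mn alloy at 5 mg/ml and 6 from cells without metal powder. They were chosen by the treatment named in the sample titles and not by any measured value. Cells were BALB/3T3 clone A31, an established line of mouse embryo fibroblasts, and all groups shared the medium and the time of 24 h. The alloy powder was made by filing and sieving, sterilised with UV light and placed above the cell layer in a culture insert, so that metal reached the cells through the medium. The other 12 arrays, 6 from cells under pure iron at a dose between those of the alloy and manganese and 6 from cells under pure manganese at 0.5 mg/ml, enter only the normalisation and a side-by-side reading at the end. The labels call the 6 arrays of a group technical replicates of this single line, so the p-values below measure the spread between these arrays and not between independent cultures.

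Iron-manganese alloys are studied as metals that corrode away in the body, for instance as material for stents, and fibroblasts are cells of the outer layer of the artery. Cells take up iron through the transferrin receptor, store it in ferritin and release it from haem with haem oxygenase, while zinc and manganese pass through SLC39 and SLC30 transporters and zinc is bound by metallothioneins. Electrophiles and oxidants free the transcription factor NRF2, which raises genes of glutathione synthesis and quinone reduction. Shortage of amino acids, unfolded protein in the endoplasmic reticulum or missing haem leads to phosphorylation of the initiation factor eIF2 and to translation of ATF4, a transcription factor for amino acid synthesis and transport.

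All levels are log2 fluorescence intensities after background correction and quantile normalisation, and a level of 1 gene's probe is not comparable with that of another gene. Levels are given as the lowest, the median and the highest of the 6 arrays of a group. A change is the alloy mean minus the control mean on that log2 scale, so that 1 unit is 2-fold, and a gene is called where limma's Benjamini-Hochberg adjusted p fell under 0.05. On bulk RNA, fewer cells of a kind and less RNA per cell cannot be told apart.

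The arrays of the alloy group spread more than the others. Median intensity before normalisation was 61.6 to 72.0 on the alloy arrays and 71.6 to 74.7 on the control arrays, and 36.9% to 41.2% of probes stood above background on the alloy arrays, against 41.3% to 42.5% on the control arrays. Both low ends belong to alloy replicate 4, and the next lowest alloy array, replicate 1, had 68.8 and 39.4%. The SD of a gene over the 6 arrays had a median of 0.151 with alloy and 0.0758 without metal. On the first principal component of all 12 arrays, which held 79.3% of the variance, the 6 alloy arrays had scores of 40.1, 17.8, 49.9, 26.7, 7.69 and 15.98 for replicates 1 to 6, and the control arrays lay between -26.5 and -26.2. Alloy replicates 1, 3 and 4 lay farthest from the controls and alloy replicate 5 nearest. The counts and median of each list below are therefore also given without alloy replicates 1, 3 and 4 (the 3 replicates), and the median gene SD of the remaining 3 alloy arrays was 0.0815. The 3 replicates were picked as farthest from the controls, so smaller changes and spread without them follow in part from that choice. Calls and p-values without them are no independent check. Of 10 fibroblast markers 8 were above background on all 12 arrays, and Col1a1 and Fap on none.

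With alloy, 6442 of 12473 genes passed the threshold, 51.6% of those tested, 3053 higher (24.5%) and 3389 lower (27.2%). Counts of higher and lower members in each list below are to be read against these shares. Some genes stand in several lists, as Slc7a11, Slc6a9, Chac1, Stc2, Col1a2 and Col3a1 do, so the lists are not independent of each other. At least 2-fold changes were fewer, with 311 genes higher (2.49%) and 274 lower (2.2%). The 6 alloy arrays and the 6 control arrays did not overlap for 4325 genes (34.7%). The median change of all genes was -0.01. Quantile normalisation makes the arrays' distributions alike, and the split into higher and lower calls leaned on it: 47.4% of calls were higher here, 28.0% after median scaling and 22% with no normalisation, where the median change of all genes was -0.09 and -0.14.

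The largest rises included chemokine, interferon-stimulated and stress-response genes. Avil, which codes for the actin-binding protein advillin, lay at 9.05, 10.52 and 11.90 on the alloy arrays, against 6.30, 6.41 and 6.51 on the control arrays, a change of 4.08 ± 0.38 (SE; adjusted p = 1.04e-06), though its probe was above background on only 2 of the 6 control arrays, so that this size rests largely on values near background. The same holds for Krt16 with 2 control arrays above background and Atf3 with 3. Ccl4, a chemokine for monocytes and T cells, lay at 7.84, 8.98 and 13.04 with alloy and at 5.89, 5.94 and 6.09 without metal. All 6 control arrays put Ccl4 below background, so that its rise is stated as at least 11.1-fold, set against the lowest signal above background, and its call was lost in the authors' normalised probe table. Rsad2, the antiviral enzyme viperin, changed by 3.95 ± 0.53 (adjusted p = 3.02e-05) and Ccl5, another chemokine, by 3.92 ± 0.49 (adjusted p = 1.57e-05). Dusp4, a nuclear phosphatase of MAP kinases, rose by 3.87 ± 0.21 (adjusted p = 7.83e-09), though a second probe for it gave 0.91. The keratin gene Krt16, Cxcl10, Atf3, Ifi207, Slc7a11, Hmox1, the glutathione transferase Gsta1, Ppp1r15a, Dnmt3l and the oligoadenylate synthetase-like gene Oasl1 complete the 15 largest rises, with changes between 2.97 and 3.56. Dnmt3l, a cofactor of DNA methyltransferases, was also below background in all controls and rose at least 6.02-fold. The Oasl1 probe was above background on 0 of the 6 control arrays, and a second probe for it gave 2.58. The 15 were taken from genes whose groups did not overlap, so the lack of overlap is part of the choice and no result.

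The largest falls included genes for secreted and matrix proteins and for transcriptional regulators. Cxcl12, a chemokine that fibroblasts secrete, lay at 8.95, 10.17 and 11.52 with alloy against 13.63, 13.66 and 13.77 without metal, a change of -3.56 ± 0.34 (adjusted p = 1.27e-06). Depp1, a target of FOXO transcription factors, lay at 6.09, 6.74 and 7.44 with alloy and 9.97, 10.15 and 10.19 without metal, and changed by -3.42 ± 0.17 (adjusted p = 4.69e-09). Mxd4, a repressor that competes with MYC for its partner MAX, changed by -2.84 ± 0.24 (adjusted p = 4.08e-07). Ccn2, the matricellular connective tissue growth factor, changed by -2.80 ± 0.37 and Fgf7, a growth factor for epithelial cells, by -2.63 ± 0.19. Prelp, Eva1b, the glutamate transporter gene Slc1a3, the Wnt effector Tcf7l1, the activin antagonist Fst, Nrep, the collagen cross-linking enzyme Lox, the homeobox gene Hoxa2, Gas7 and Medag complete the 15 largest falls, with changes between -2.60 and -2.17. A second probe for Tcf7l1 gave -0.46 and another for Gas7 -0.55. These 15 too were taken from genes whose groups did not overlap. Depp1 was above background on 4 of the 6 alloy arrays.

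**Figure D1:**
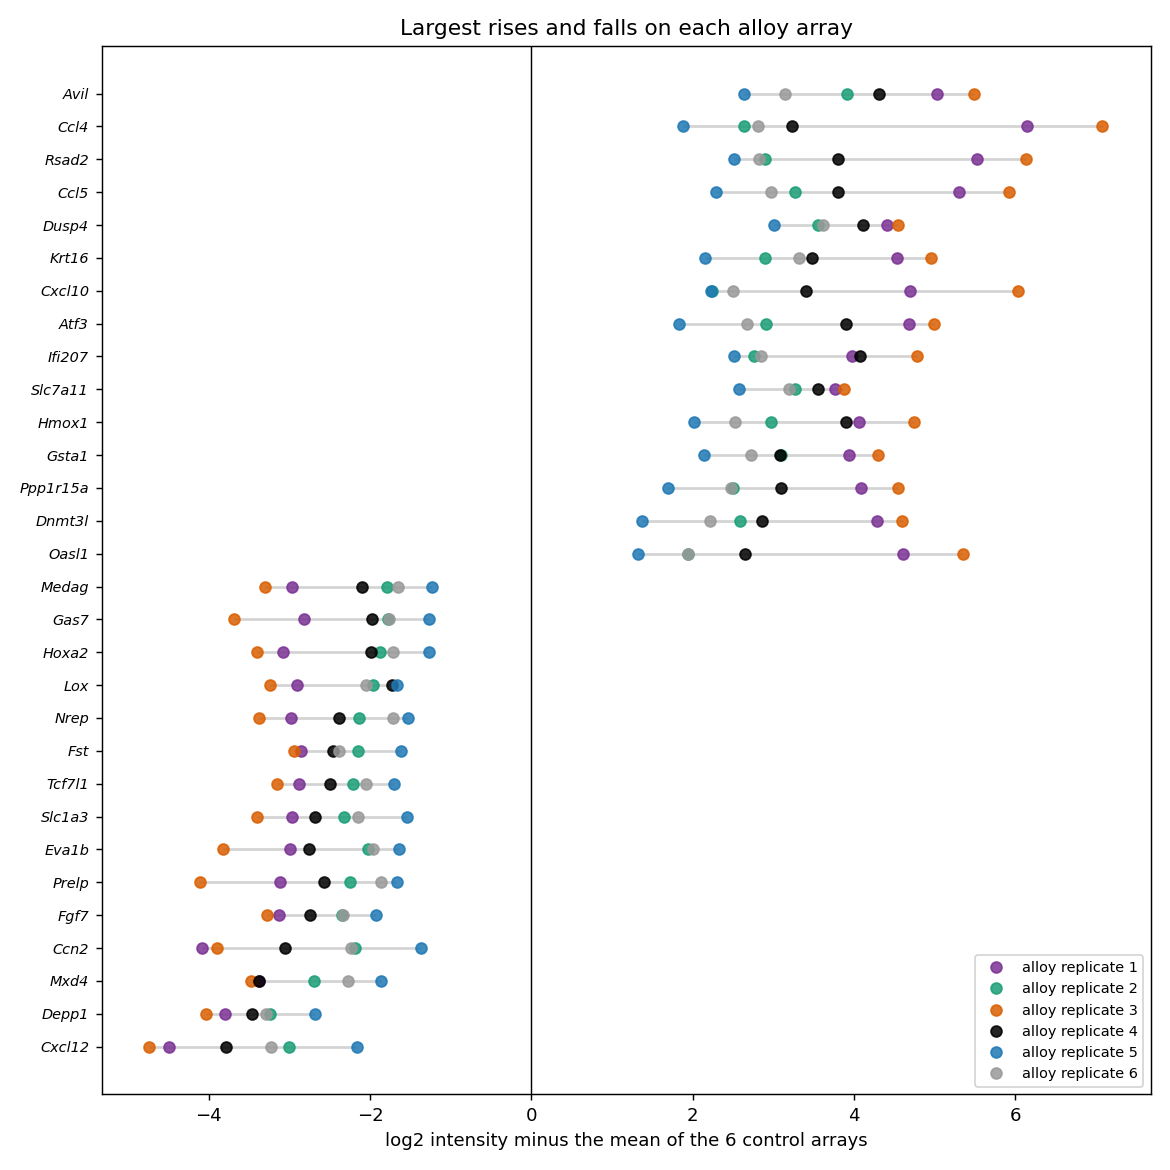
Log2 intensity of each alloy array minus the mean of the 6 control arrays (x axis) for the 15 largest rises and 15 largest falls (rows), with 1 point per alloy replicate and grey lines over their range. By the choice of genes without overlap all points of a gene lie on the same side of 0; alloy replicate 3 is most often the farthest from 0 and alloy replicate 5 the nearest.

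The 6 alloy arrays did not differ from the controls to the same extent, and the cause of this was not tested. Among the 311 genes at least 2-fold higher, alloy replicate 3 was farthest from the control mean for 238 and alloy replicate 5 was nearest for 240. Among the 274 at least 2-fold lower, replicate 3 was farthest for 194 and replicate 5 nearest for 217. The median change of the 311 genes was 1.80, 1.19, 2.09, 1.38, 0.98 and 1.18 on alloy replicates 1 to 6, and that of the 274 genes was -1.46, -1.13, -1.67, -1.33, -0.92 and -1.08. The range of a gene over the 6 alloy arrays had a median of 1.21 log2 units among the higher genes, with the narrowest at 0.27 and the widest at 5.20. Without alloy replicates 1, 3 and 4, 199 genes were at least 2-fold higher and 154 lower, while the count past the threshold was 6470, of which 5663 were also called with all 6 arrays and in the same direction.

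Of the genes with the widest ranges, Ccl4 was 12.11, 8.60, 13.04, 9.19, 7.84 and 8.77 on alloy replicates 1 to 6. Ccl5 was 14.31, 12.28, 14.93, 12.81, 11.30 and 11.98, in the same order of replicates. Oasl1, Cxcl10 and Rsad2 completed the 5 widest, with changes of 1.32 to 5.35, 2.22 to 6.03 and 2.51 to 6.13 on single arrays. In each of these 5 genes replicates 3 and 1 were the highest and replicate 5 the lowest. By the same choice on range, the narrowest among genes at least 2-fold changed were those of Ccdc80, Lss, Nid2, Fam180a and Atf4. Ccdc80, which codes for a secreted matrix protein, was 7.99, 8.08, 8.12, 7.88, 8.12 and 7.93 on alloy replicates 1 to 6, against 9.27, 9.31 and 9.37 on the control arrays. Lss, lanosterol synthase, changed by -1.47 to -1.22 on single alloy arrays and Atf4 by 1.10 to 1.37.

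**Figure D2:**
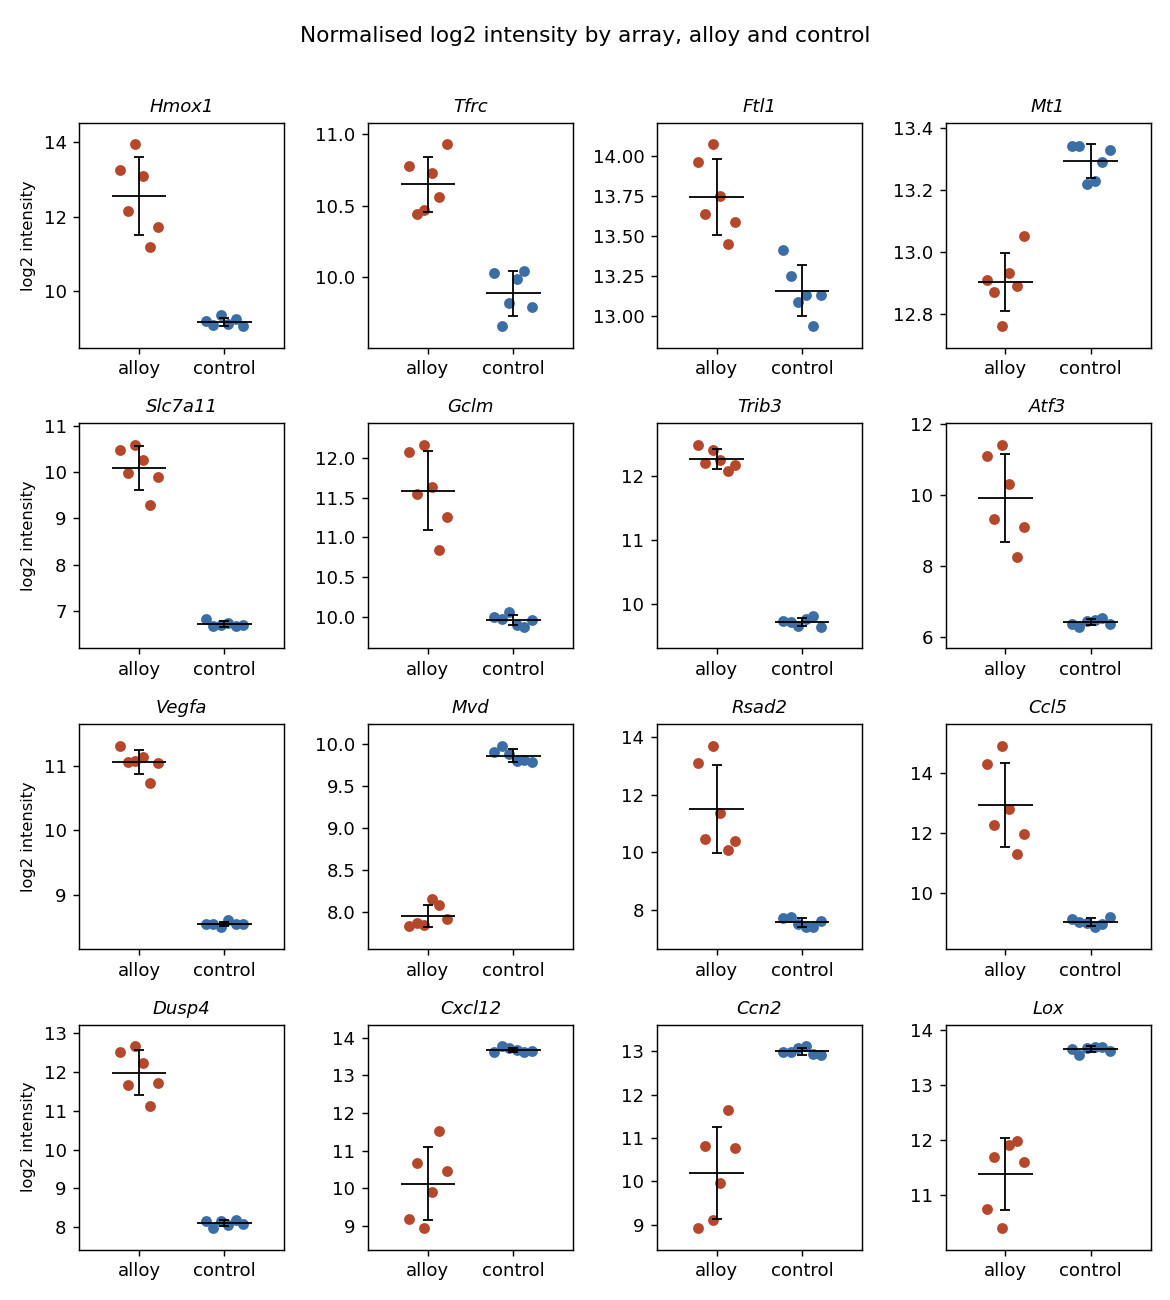
Normalised log2 intensity (y axis, own scale per panel) of 16 genes on each alloy array (left in each panel, red) and each control array (right, blue), with black lines for the mean and bars for the SD of the 6 arrays. The groups do not overlap in any panel, which for the genes among the largest rises and falls is part of their choice. Rsad2, Ccl5, Atf3 and Cxcl12 spread widely over the alloy arrays, while Trib3 and Mvd stay close together.

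Genes of iron uptake and storage moved in part. Of 19 iron handling genes tested, 8 were higher and 4 lower with alloy, against 24.5% higher and 27.2% lower among all genes. The list had 8 higher, 5 lower and a median of 0.06 without the 3 replicates. Tfrc, the transferrin receptor, lay at 10.44, 10.64 and 10.93 with alloy and 9.66, 9.90 and 10.04 without metal, a change of 0.77 ± 0.09 (adjusted p = 1.27e-05). The ferritin light chain gene Ftl1 lay at 13.45, 13.69 and 14.07 with alloy and 12.94, 13.13 and 13.41 without metal, and rose by 0.58 ± 0.10 (adjusted p = 0.000339). Thus RNA of the receptor for uptake and of the storage protein was higher, and neither group of arrays overlapped the other. Fth1, the heavy chain, rose by 0.23 ± 0.06 (adjusted p = 0.00279), a call that was lost with no normalisation. Ferritin genes have many processed copies in the genome, which a short probe may not tell apart.

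Steap1, of the STEAP family, rose by 1.37 ± 0.15 and Slc25a37, mitoferrin, by 0.94 ± 0.09. Steap2, of the same family, changed by -0.70 ± 0.13 (adjusted p = 0.000385). Cp, ceruloplasmin, which oxidises exported iron, lay at 9.24, 9.50 and 9.54 with alloy against 10.36, 10.53 and 10.65 without metal and changed by -1.06 ± 0.07 (adjusted p = 4.84e-08), with another probe at -0.49. Slc11a2, the importer DMT1, was called at 0.75 ± 0.17, but its probes ranged from -0.53 to 0.75 and the call was lost with the mean of the probes. The exporter ferroportin, Slc40a1, lay at 7.19, 7.30 and 7.64 with alloy and 7.27, 7.36 and 7.51 without metal and did not pass (adjusted p = 0.778), while another of its probes gave 1.41 and the mean of the probes 0.69. The median change of the list was 0.13, with medians of -0.02 to 0.23 on single alloy arrays, and it was below 0 after median scaling and with no normalisation.

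Among the iron, haem and zinc lists the largest change was that of haem oxygenase. Hmox1, haem oxygenase 1, lay at 11.20, 12.62 and 13.93 with alloy and 9.07, 9.16 and 9.36 without metal, a change of 3.37 ± 0.36 (adjusted p = 4.04e-06) and of 2.50 without replicates 1, 3 and 4. The lowest alloy array was above the highest control array, which is part of the choice of Hmox1 among the largest rises. Biliverdin reductase B, Blvrb, rose by 0.99 ± 0.13, the haem transporter gene Slc48a1 by 0.98 ± 0.08 and Alas1, the first enzyme of haem synthesis, by 0.86 ± 0.09. In all 9 of 15 genes of haem breakdown and synthesis were higher and 4 lower, with a median of 0.24, against 9 higher, 4 lower and a median of 0.25 without the 3 replicates.

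The zinc and manganese genes showed no shared direction. Among 15 transport genes tested 3 were higher and 3 lower, with 3 higher, 5 lower and a median of -0.02 without the 3 replicates. With all 6 arrays the median was 0.05, and it was below 0 after median scaling and with no normalisation. Mt1, a metallothionein that rises with zinc, lay at 12.76, 12.90 and 13.05 with alloy and 13.22, 13.31 and 13.34 without metal, lower on every alloy array (change -0.39 ± 0.05, adjusted p = 2.69e-05). Slc39a13, a zinc transporter of the secretory pathway, changed by -1.15 ± 0.10 and Slc30a1, a zinc exporter, by -0.26 ± 0.06, while Slc39a6 rose by 0.89 ± 0.11 and Slc39a10 by 0.31 ± 0.09, the last lost under median scaling. Slc39a14, an importer of manganese, zinc and iron, changed by 0.09 ± 0.06 and did not pass (adjusted p = 0.263), and its call appeared with the mean of the probes. The manganese exporter gene Slc30a10 and Mt2 were not above background on enough arrays to be tested.

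**Figure D3:**
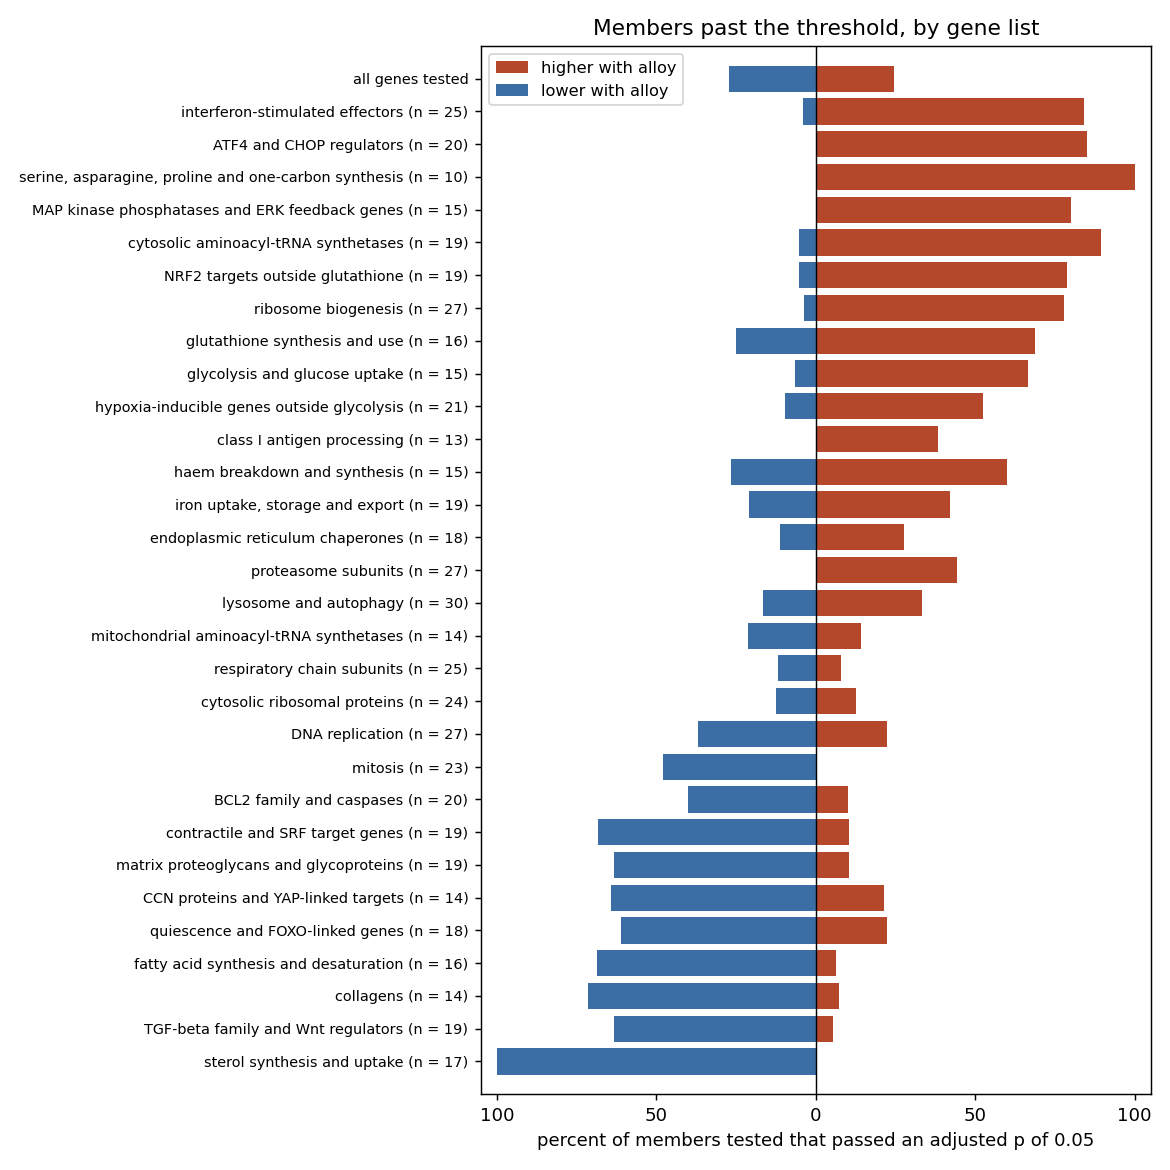
Percent of the tested members of each gene list that were called higher (red, right) or lower (blue, left) with alloy at an adjusted p under 0.05, with all genes tested in the top row. All 10 genes of serine, asparagine, proline and one-carbon synthesis were higher and all 17 sterol genes lower, while respiratory chain and ribosomal protein genes lie below the top row on both sides.

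Genes of glutathione synthesis and of the NRF2 response rose together with Hmox1. Of 16 glutathione genes 11 were higher and 4 lower (11 higher, 3 lower and a median of 0.37 without the 3 replicates), with a median change of 0.48, and single alloy arrays gave medians of 0.38 to 0.64. Slc7a11, the cystine importer, lay at 9.29, 10.12 and 10.59 with alloy and 6.67, 6.69 and 6.82 without metal and rose by 3.37 ± 0.17 (adjusted p = 4.77e-09), though another probe gave 0.01. Gclm, the modifier subunit of the rate-limiting enzyme, lay at 10.84, 11.59 and 12.16 with alloy and 9.88, 9.97 and 10.06 without metal, a change of 1.62 ± 0.18 (adjusted p = 4.54e-06). RNA read by the main probes of both genes was higher on every alloy array than on any control array. For Slc7a11, among the largest rises, this is part of the choice. Gsta4, a transferase for lipid aldehydes, rose by 2.86 ± 0.23 and Chac1, which degrades glutathione, by 2.10 ± 0.07. Chac1 also stands in the list of ATF4 and CHOP genes, and Slc7a11 in that of amino acid transporters. Gpx4, which reduces lipid peroxides, lay at 13.24, 13.43 and 13.53 with alloy and 13.34, 13.43 and 13.48 without metal and did not pass (adjusted p = 0.881), while another probe gave 0.84 and the mean of the probes 0.29. The 4 lower members were the peroxidase genes Gpx8 (-0.83 ± 0.16) and Gpx1 (-0.56 ± 0.14) and the transferase genes Gstt1 (-0.30 ± 0.06) and Gstm5 (-0.22 ± 0.08).

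Outside glutathione, 15 of 19 NRF2 targets were higher and 1 lower, with a median of 0.59, against 15 higher, 1 lower and a median of 0.45 without the 3 replicates. With all 6 alloy arrays the lower member was Ephx1, with a change of -0.75 ± 0.07. Nqo1, the quinone reductase, lay at 9.56, 9.88 and 10.11 with alloy and 8.63, 8.85 and 8.87 without metal and changed by 1.09 ± 0.08 (adjusted p = 2e-07). The autophagy receptor Sqstm1 rose by 1.84 ± 0.17, the glycine transporter gene Slc6a9 by 1.67 ± 0.16, the exporter gene Abcc4 by 1.71 ± 0.21 and sulfiredoxin, Srxn1, by 1.75 ± 0.18. These rises were smaller without replicates 1, 3 and 4, which were picked as farthest from the controls, at 1.47, 1.38, 1.24 and 1.32. Of the 10 enzymes that remove superoxide and peroxide 2 were higher and 3 lower, near the 24.5% and 27.2% of all genes, with a median of 0.06 (3 higher, 3 lower and a median of 0.03 without the 3 replicates). Among them Sod1 changed by 0.17 ± 0.05, a call lost under median scaling, Sod2 by 0.13 ± 0.09 (adjusted p = 0.277) and Cat by 0.37 ± 0.17 (adjusted p = 0.0755), while Sod3 changed by -0.46 ± 0.08 and Ccs, the copper chaperone of SOD1, by -0.46 ± 0.08.

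NRF2 binds the antioxidant response element, searched here as TGACNNNGC on both strands in the window of 250 bases before to 50 after the start site (RefSeq, build GRCm38). Over the haem, glutathione and NRF2 lists together it stood in 11 of 30 higher members with a promoter sequence. It stood in 1 of 9 lower and in 1 of 5 not called, against 14.0% of 27025 genes. The Srxn1 promoter (chr2:152105274-152105573, plus strand) is shown as that of a called member with a match and a large change, with the match in capitals. A match is a run of letters and not a site shown to be bound.
Srxn1: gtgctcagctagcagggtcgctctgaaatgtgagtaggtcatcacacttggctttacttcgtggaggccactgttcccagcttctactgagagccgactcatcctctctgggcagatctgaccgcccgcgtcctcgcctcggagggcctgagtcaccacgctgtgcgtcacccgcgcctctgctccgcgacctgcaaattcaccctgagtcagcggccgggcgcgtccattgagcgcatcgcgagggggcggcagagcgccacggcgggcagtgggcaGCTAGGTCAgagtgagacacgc

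Genes of the ATF4 and CHOP list were mostly higher. The list also holds Atf4 itself and the eIF2 kinase genes Eif2ak3 and Eif2ak4. Neither kinase gene passed (adjusted p = 0.350 and 0.626). Of 20 ATF4 and CHOP genes 17 were higher and 0 lower (18 higher, 0 lower and a median of 0.96 without the 3 replicates). The median change was 1.04, and medians on single alloy arrays ran from 0.98 to 1.33, although single members differed more. Atf4 itself lay at 13.17, 13.28 and 13.44 with alloy and 11.97, 12.05 and 12.25 without metal, a change of 1.21 ± 0.06 (adjusted p = 4.77e-09). Ddit3, which codes for CHOP, lay at 11.66, 12.15 and 13.12 with alloy and 9.79, 9.80 and 9.91 without metal and rose by 2.44 ± 0.20 (adjusted p = 2.85e-07). Neither gene had an alloy array within the control range. Atf3, a partner of ATF4, lay at 8.24, 9.82 and 11.40 with alloy and 6.29, 6.41 and 6.54 without metal and rose by 3.50 ± 0.43 (adjusted p = 1.33e-05). Trib3, a pseudokinase that CHOP and ATF4 raise, lay at 12.09, 12.23 and 12.49 with alloy and 9.64, 9.73 and 9.81 without metal, a change of 2.55 ± 0.07 (adjusted p = 2.66e-11). On single alloy arrays Atf3 changed by 1.83 to 4.99, Ddit3 by 1.84 to 3.29 and Trib3 by 2.36 to 2.76. Ppp1r15a, the phosphatase subunit that reverses eIF2 phosphorylation, rose by 3.07 ± 0.38, and Nupr1, a stress-induced chromatin protein, by 2.72 ± 0.19.

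Enzymes that make amino acids and load them on tRNA rose with these factors. All 10 of 10 genes of serine, asparagine, proline and one-carbon synthesis were higher, with a median of 1.00, against 10 higher, 0 lower and a median of 0.90 without the 3 replicates. Cth, which makes cysteine from cystathionine, lay at 7.88, 8.42 and 8.99 with alloy and 6.49, 6.63 and 6.69 without metal and rose by 1.80 ± 0.14 (adjusted p = 1.85e-07). The mitochondrial folate enzymes Aldh1l2, Mthfd2 and Shmt2 rose by 1.64, 1.37 and 1.35. Of 19 cytosolic aminoacyl-tRNA synthetases 17 were higher and 1 lower, with a median of 0.71 (16 higher, 0 lower and a median of 0.65 without the 3 replicates), against 2 higher and 3 lower of 14 mitochondrial ones with a median of 0.05 (3 higher, 1 lower and a median of 0.05 without the 3 replicates). The median of the mitochondrial list was below 0 after median scaling and with no normalisation. The cytosolic genes for asparagine, serine, alanine and tryptophan, Nars, Sars, Aars and Wars, led with 1.49, 1.25, 1.10 and 1.01. Among mitochondrial ones Tars2 rose by 0.36, lost under median scaling, and Iars2 changed by -0.38.

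Amino acid transporters were split. Of 17 tested 7 were higher and 3 lower, and the median of 0.02 was near that of all genes, with 7 higher, 4 lower and a median of -0.00449 without the 3 replicates. Slc7a11, Slc6a9 and Slc1a4, an exchanger of alanine, serine and cysteine, rose by 3.37, 1.67 and 1.53. The glutamate importer gene Slc1a3 went the other way, lying at 7.52, 8.42 and 9.38 with alloy and 10.78, 10.95 and 11.05 without metal, a change of -2.51 ± 0.23 (adjusted p = 1.01e-06).

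CHOP and ATF4 bind the C/EBP-ATF response element, searched as TGATGNAA on both strands in the same promoter windows. Over the lists of ATF4 and CHOP genes, amino acid synthesis, cytosolic synthetases and amino acid transporters it stood in 15 of 39 higher members. It stood in 0 of 4 lower and in 1 of 8 not called, against 4.51% of 27025 genes. The promoters of Atf3 (chr1:191183284-191183583, minus strand) and Slc7a11 (chr3:50443564-50443863, minus strand) belong to the members with the largest changes. Slc7a11 holds 2 matches in opposite orientation close to each other, and Atf3 1, in capitals.
Atf3: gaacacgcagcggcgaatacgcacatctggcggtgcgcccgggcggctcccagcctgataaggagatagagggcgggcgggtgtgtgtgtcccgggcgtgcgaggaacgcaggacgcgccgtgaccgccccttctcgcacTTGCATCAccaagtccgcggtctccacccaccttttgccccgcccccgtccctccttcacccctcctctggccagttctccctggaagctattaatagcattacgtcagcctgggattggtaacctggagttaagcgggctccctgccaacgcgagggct
Slc7a11: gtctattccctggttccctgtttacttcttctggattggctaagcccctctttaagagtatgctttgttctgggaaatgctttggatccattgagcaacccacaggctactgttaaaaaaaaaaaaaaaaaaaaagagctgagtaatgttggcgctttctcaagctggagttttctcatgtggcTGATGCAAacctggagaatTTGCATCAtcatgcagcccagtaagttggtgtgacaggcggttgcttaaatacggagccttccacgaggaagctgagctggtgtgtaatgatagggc

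Chaperones of the endoplasmic reticulum and heat shock proteins did not rise as groups. Of 18 chaperone genes 5 were higher and 2 lower, with a median of 0.12, but 4 higher, 5 lower and a median of -0.09 without the 3 replicates. Among all genes tested 24.5% were higher and 27.2% lower. Replicate 3 alone had a list median of 0.76, and the lowest of the 6 was -0.09. Hspa5, the chaperone BiP, lay at 7.40, 7.79 and 9.44 with alloy and 6.79, 6.98 and 7.02 without metal, a change of 1.17 ± 0.27 (adjusted p = 0.00212) that was 0.67 without these replicates. Dnajb9, Xbp1 and Herpud1, further genes of the unfolded protein response, rose by 1.37, 1.08 and 0.99. Of 16 heat shock genes 7 were higher and 4 lower (8 higher, 5 lower and a median of 0.12 without the 3 replicates). Hspb8 and mitochondrial Hspa9 rose by 0.72 and 0.65, and Cryab, a small heat shock protein, changed by -0.83 with no overlap between the groups. The median of 0.08 turned below 0 after median scaling and with no normalisation.

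Hypoxia-inducible and glycolytic genes were higher, and their list medians were larger without alloy replicates 1, 3 and 4. Of 21 hypoxia-inducible genes 11 were higher and 2 lower with a median of 0.34, against 15 higher, 2 lower and a median of 0.61 without the 3 replicates. The list median was 0.06 on replicate 1 and 0.18 on replicate 3, but 0.62 on replicate 5 and 0.70 on replicate 6. Vegfa, the vascular growth factor, lay at 10.74, 11.06 and 11.31 with alloy and 8.50, 8.55 and 8.61 without metal, a change of 2.50 ± 0.08 (adjusted p = 5.3e-11). Ndrg1, which rises with hypoxia and iron chelation, changed by 2.31 ± 0.20 and the hormone gene Stc2 by 1.79 ± 0.20. Angptl4, an inhibitor of lipoprotein lipase, lay at 6.61, 8.14 and 8.98 with alloy and 9.82, 9.96 and 10.07 without metal and thus went against the list (change -2.0 ± 0.30, adjusted p = 7.19e-05).

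Among 15 glycolytic genes 10 were higher and 1 lower with a median of 0.38, with 12 higher, 1 lower and a median of 0.46 without the 3 replicates. Slc2a1, the glucose transporter GLUT1, lay at 12.40, 12.59 and 12.94 with alloy and 11.17, 11.19 and 11.31 without metal and rose by 1.40 ± 0.08 (adjusted p = 1.31e-08). Pfkl, Eno2 and Aldoa rose by 1.03, 0.84 and 0.72, and another probe for Pfkl gave 0.16. Respiratory chain subunits stayed near the median of all genes: 2 of 25 were higher, 3 lower with a median of 0.01 (3 higher, 2 lower and a median of -0.03 without the 3 replicates), and the largest change among the called was -0.29 for Sdhc of complex II.

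Sterol synthesis genes fell as a whole. All 17 of 17 sterol genes were lower with alloy, 8 of them at least 2-fold. The median change was -0.80 (0 higher, 17 lower and a median of -0.92 without the 3 replicates), single alloy arrays gave list medians of -0.96 to -0.86, and the control arrays -0.04 to 0.03. A list median of changes and the medians on single arrays rank different values and need not bracket each other. Mvd, mevalonate diphosphate decarboxylase, lay at 7.83, 7.89 and 8.15 with alloy and 9.79, 9.85 and 9.98 without metal, a change of -1.92 ± 0.06 (adjusted p = 1.45e-10). Nsdhl, which removes methyl groups from sterol intermediates, lay at 7.42, 7.93 and 8.34 with alloy and 9.38, 9.57 and 9.60 without metal and changed by -1.66 ± 0.12 (adjusted p = 1.4e-07). The groups were far apart for both genes. Hsd17b7, Fdps and Lss, further enzymes of the pathway, changed by -1.33, -1.33 and -1.29, and another probe for Hsd17b7 gave -0.43.

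Fatty acid genes fell with them. Of 16 tested 11 were lower and 1 higher, with a median of -0.56 (1 higher, 11 lower and a median of -0.43 without the 3 replicates). Acss2, which activates acetate, lay at 6.46, 6.93 and 7.27 with alloy and 8.34, 8.45 and 8.53 without metal and changed by -1.51 ± 0.11 (adjusted p = 1.31e-07). The elongase Elovl6 and the desaturases Scd1 and Fads2 changed by -1.29, -0.96 and -0.85. SREBP2, the main activator of sterol genes, binds a sterol regulatory element. As the letters TCACNCCAC it stood in 0 of the 14 lower sterol genes with a promoter sequence and in 1.44% of 27025 genes, so no promoter of this list is shown.

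**Figure D4:**
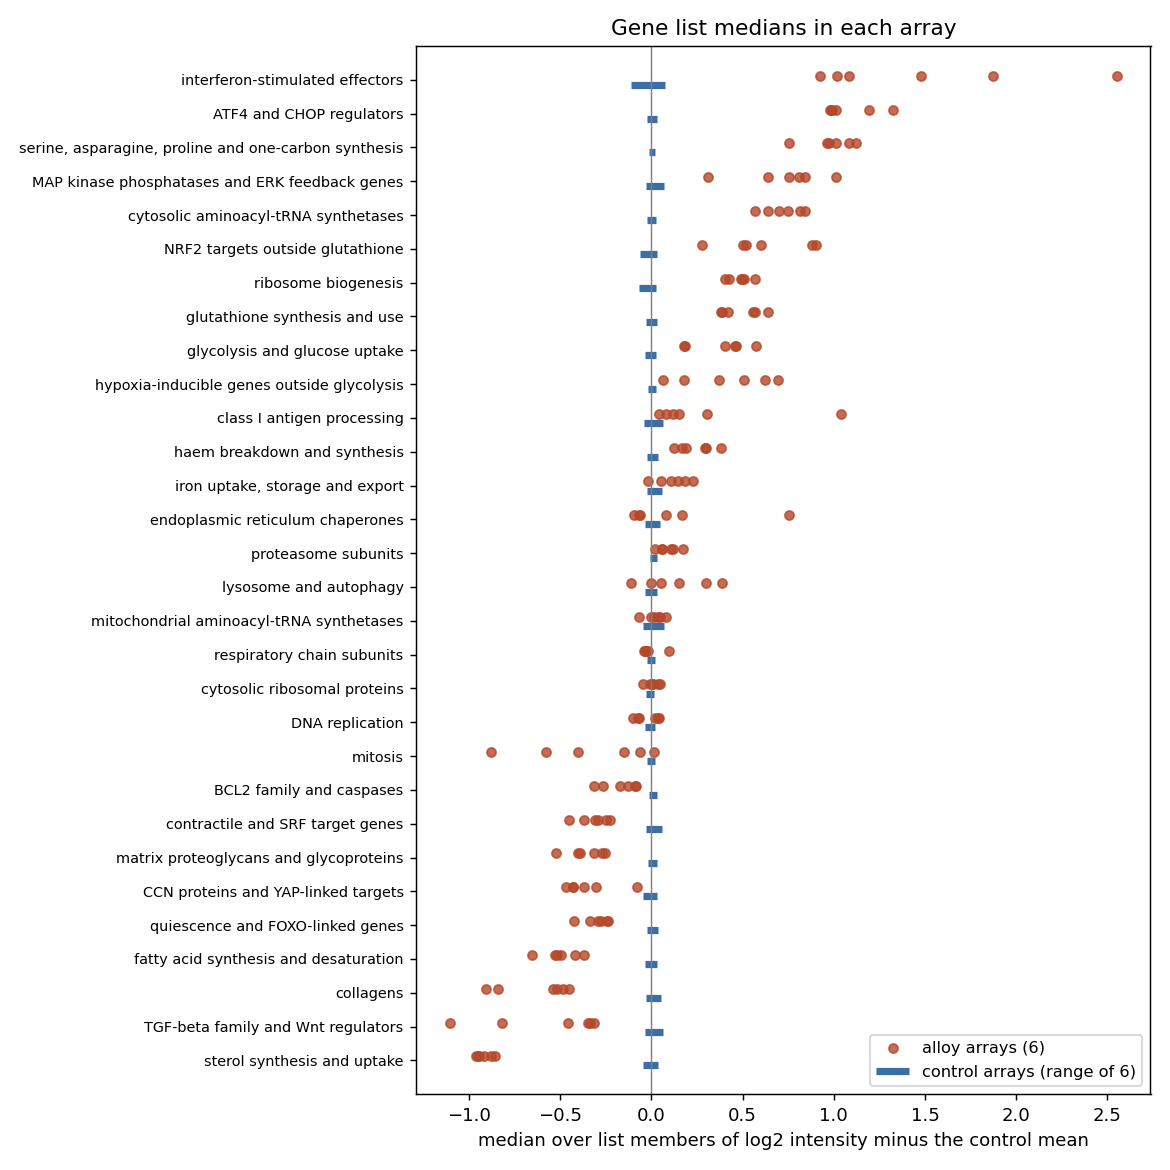
Median over the members of each gene list of log2 intensity minus the control mean (x axis), as red points for the 6 alloy arrays and a blue bar for the range of the 6 control arrays. Sterol genes lie within -0.96 to -0.86 on the 6 alloy arrays and ATF4 and CHOP genes within 0.98 to 1.33, while interferon-stimulated genes spread over 0.93 to 2.55 and mitosis genes over -0.88 to 0.01.

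Interferon-stimulated genes rose on all alloy arrays but to unequal extent. Of 25 effector genes 21 were higher and 1 lower, 19 of them at least 2-fold higher, with a median of 1.45. The same list had 20 higher, 2 lower and a median of 0.95 without the 3 replicates. The list median was 1.87, 1.02, 2.55, 1.48, 0.93 and 1.08 on alloy replicates 1 to 6. Rsad2 lay at 10.08, 10.92 and 13.70 with alloy and 7.40, 7.56 and 7.74 without metal. Ifi207, of the family of nucleic acid-binding IFI200 proteins, lay at 10.76, 11.67 and 13.03 with alloy and 8.18, 8.24 and 8.35 without metal, a change of 3.49 ± 0.32 (adjusted p = 9.02e-07). Both genes are among the largest rises, so their lack of overlap with the controls is part of that choice. Oasl1 rose by 2.97 ± 0.57 (adjusted p = 0.000545) and Usp18, which removes ISG15 and dampens the interferon receptor, by 2.69 ± 0.28 (adjusted p = 2.99e-06).

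Among 20 sensors and signalling genes of the pathway 11 were higher and 3 lower, with a median of 0.31, but 9 higher, 4 lower and a median of 0.14 without the 3 replicates. Dhx58, the RNA sensor LGP2, lay at 9.18, 9.67 and 10.50 with alloy and 7.99, 8.21 and 8.38 without metal, a change of 1.54 ± 0.20 (adjusted p = 2.56e-05). Irf7, the transcription factor that amplifies interferon genes, rose by 1.26 ± 0.22, the DNA sensor gene Cgas by 1.22 ± 0.19 and Stat2 by 0.97 ± 0.24, while another probe for Cgas gave 0.36. Stat2 dropped to a change of 0.39 without replicates 1, 3 and 4. Of 13 class I antigen processing genes 5 were higher and 0 lower with a median of 0.29, but 4 higher, 1 lower and a median of 0.09 without the 3 replicates. On single arrays the list had a median of 1.04 on replicate 3 and of at most 0.30 on the other 5. Nlrc5, the class I transactivator, rose by 1.32 ± 0.27, and H2-T23, H2-K1 and H2-D1 by 0.64, 0.58 and 0.55, the call of H2-K1 being lost under median scaling. The probes for H2-K1 ranged from 0.06 to 0.74. Class I genes are alike in sequence, and probes may read more than 1 of them.

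ISGF3 and IRF proteins bind the interferon-stimulated response element, searched on both strands as GAAA, any 2 bases and GAAA. Over the effector list and the list of sensors and signalling genes, without class I genes, it stood in 13 of 25 higher members. It stood in 0 of 2 lower and in 2 of 9 not called, against 3.99% of 27025 genes. The promoters of Rsad2 (chr12:26456403-26456702, minus strand) and Ifi207 (chr1:173741760-173742059, minus strand), the members with the largest changes, each hold 1 match, in capitals.
Rsad2: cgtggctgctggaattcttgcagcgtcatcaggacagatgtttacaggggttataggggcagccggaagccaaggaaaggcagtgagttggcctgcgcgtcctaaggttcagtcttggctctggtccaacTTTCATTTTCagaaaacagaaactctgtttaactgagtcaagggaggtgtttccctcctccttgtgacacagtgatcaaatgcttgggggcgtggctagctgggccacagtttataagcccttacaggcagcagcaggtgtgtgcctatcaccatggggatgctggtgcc
Ifi207: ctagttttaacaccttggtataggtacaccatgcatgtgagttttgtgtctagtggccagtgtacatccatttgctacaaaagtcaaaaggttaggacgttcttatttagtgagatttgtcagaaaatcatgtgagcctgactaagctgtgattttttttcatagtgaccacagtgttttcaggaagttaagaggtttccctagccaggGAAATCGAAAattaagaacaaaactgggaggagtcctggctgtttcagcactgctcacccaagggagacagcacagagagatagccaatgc

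Chemokine genes moved in both directions. Of 14 tested 8 were higher and 5 lower with a median of 0.49, against 8 higher, 5 lower and a median of 0.22 without the 3 replicates. Cxcl10, which interferon raises, lay at 9.32, 10.05 and 13.13 with alloy and 6.87, 7.13 and 7.30 without metal, a change of 3.51 ± 0.54 (adjusted p = 9.34e-05). Ccl5 lay at 11.30, 12.54 and 14.93 with alloy and 8.84, 8.99 and 9.19 without metal. Both were above every control on each alloy array, as was Ccl4, which is part of their choice among the largest rises. Ccl2, the monocyte chemokine, lay at 7.45, 7.68 and 8.16 with alloy and 7.85, 8.04 and 8.19 without metal and was lower (change -0.34 ± 0.11, adjusted p = 0.0169), with 5 of 6 alloy arrays below all controls. Of the macrophage markers Ptprc, Adgre1 and Itgam were above background on none of the 12 arrays, and Cd14 changed by 0.32. Lyz2 was at 6.12, 6.16 and 6.29 with alloy, where it was above background on 0 of 6 arrays. Without metal it was at 6.53, 6.78 and 6.92 and above background on all 6. NF-kB subunits and feedback genes had 3 higher and 4 lower of 12, against 24.5% and 27.2% of all genes. Their median was 0.02 (3 higher, 6 lower and a median of -0.08 without the 3 replicates). Rela rose by 0.52, lost under median scaling, and Nfkbie, Vcam1 and Bcl3 changed by -0.88, -0.82 and -0.59, and another probe for Nfkbie gave -0.37.

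Feedback genes of the ERK pathway were higher. Of 15 MAP kinase phosphatases and ERK feedback genes 12 were higher and 0 lower, with a median of 0.86, against 12 higher, 0 lower and a median of 0.56 without the 3 replicates. Dusp4 lay at 11.12, 11.97 and 12.66 with alloy and 7.98, 8.12 and 8.20 without metal. Etv5 and Etv4, transcription factors that ERK signalling raises, rose by 1.95 ± 0.09 and 1.80 ± 0.15, and Dusp8, a phosphatase of stress kinases, by 1.60 ± 0.19. Among 17 immediate early factors 8 were higher and 3 lower with a median of 0.19 (9 higher, 5 lower and a median of 0.43 without the 3 replicates). Klf4 rose by 1.53, Jund by 1.36 and Ier3 by 1.34, while Klf2, a quiescence factor, lay at 6.82, 7.09 and 7.41 with alloy and 8.76, 8.86 and 8.94 without metal and changed by -1.74 ± 0.09 (adjusted p = 7.96e-09). Myc lay at 7.76, 7.84 and 8.22 with alloy and 7.19, 7.33 and 7.48 without metal, a change of 0.58 ± 0.08 (adjusted p = 6.07e-05).

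Collagens and other matrix genes were lower. Of 14 collagen genes 10 were lower and 1 higher with a median of -0.63 (1 higher, 10 lower and a median of -0.56 without the 3 replicates). Col1a2, a chain of the main fibroblast collagen, lay at 7.60, 7.95 and 8.27 with alloy and 8.69, 8.75 and 8.91 without metal, a change of -0.79 ± 0.10 (adjusted p = 1.69e-05). Col4a5, Col8a1, Col16a1 and Col3a1 changed by -1.54, -1.03, -0.85 and -0.84. Lox lay at 10.40, 11.63 and 11.98 with alloy and 13.54, 13.66 and 13.69 without metal and changed by -2.26 ± 0.23 (adjusted p = 2.45e-06). Of 19 proteoglycans and glycoproteins 12 were lower and 2 higher with a median of -0.24 (2 higher, 14 lower and a median of -0.30 without the 3 replicates). The small leucine-rich proteins Prelp and Ogn changed by -2.60 ± 0.32 and -2.11 ± 0.08, and Mgp, an inhibitor of calcification, by -1.59 ± 0.07.

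The remaining matrix regulators split or fell. Of 15 metalloproteinases, plasminogen activators and inhibitors 5 were higher and 6 lower with a median of 0.06 (5 higher, 6 lower and a median of -0.03 without the 3 replicates). Plaur and Plat, of plasminogen activation, rose by 1.27 and 1.2, and Adamts1 and Timp3 changed by -1.77 and -1.30, although another probe for Timp3 gave 0.01. Of 14 CCN and YAP-linked genes 9 were lower and 3 higher with a median of -0.40 (2 higher, 8 lower and a median of -0.36 without the 3 replicates). Ccn2 lay at 8.93, 10.36 and 11.64 with alloy and 12.92, 12.99 and 13.12 without metal. Ccn1, another matricellular protein, lay at 7.01, 7.25 and 7.74 with alloy and 8.36, 8.54 and 8.82 without metal, a change of -1.22 ± 0.11 (adjusted p = 1.06e-06), where another probe gave -0.39. Both stood below the control range on all 6 alloy arrays, which for Ccn2 is part of its choice among the largest falls. Ccn5 and the angiomotin-like gene Amotl2, above background on 4 of the 6 alloy arrays, changed by -1.67 and -1.35.

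Most contractile genes were lower too. Of 19 contractile and SRF target genes 13 were lower and 2 higher with a median of -0.28 (2 higher, 12 lower and a median of -0.23 without the 3 replicates). Acta2, smooth muscle actin of activated fibroblasts, lay at 12.81, 12.92 and 13.24 with alloy and 13.57, 13.61 and 13.68 without metal, a change of -0.63 ± 0.07 (adjusted p = 5.88e-06). Cald1, Cnn2 and Tpm1, which bind actin filaments, changed by -1.28, -1.05 and -0.92, while Tagln2 rose by 0.96. The 5 probes for Cald1 ranged from -1.28 to -0.21. Of 19 TGF-beta and Wnt genes 12 were lower and 1 higher with a median of -0.38 (2 higher, 13 lower and a median of -0.26 without the 3 replicates) and list medians of -1.11 to -0.32 on single alloy arrays. Id3, an inhibitor of differentiation that BMP signalling raises, changed by -1.32 ± 0.10, beside Fst and Tcf7l1.

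Receptors and growth factors of fibroblasts changed as well. Of 8 fibroblast markers tested 7 were lower, with a median of -0.80 (0 higher, 8 lower and a median of -0.56 without the 3 replicates). Of the markers of other cell types tested, the keratin gene Krt14 changed by 1.30 (adjusted p = 2e-06) and 2 further of the 6 epithelial markers did not pass, while Smtn and Des, of smooth muscle, rose by 0.37 and 0.23 and Acta2 was lower. Among the osteochondral markers Sox9 changed by -1.08 ± 0.28 (adjusted p = 0.00473) and Col2a1 did not pass (adjusted p = 0.0943). Bglap rose by 0.48 ± 0.06 but was above background on 0 of the 6 control arrays. Endothelial markers were tested in 0 of 6 cases, but Vwf was above background on 5 alloy arrays and 0 control arrays and Tek on 4 and 0. The defining markers Pecam1, Epcam and Myh11 were above background on 0 arrays of either group, and the part of other cell types in the fall was not tested. The receptors Pdgfra and Pdgfrb changed by -1.13 ± 0.13 and -1.13 ± 0.07, and vimentin, Vim, by -0.82 ± 0.19, with another probe for Vim at -0.27. Vim fell less without alloy replicates 1, 3 and 4, with a change of -0.47. Of 15 growth factors and antagonists 5 were higher and 5 lower with a median of -0.01 (7 higher, 4 lower and a median of -0.02 without the 3 replicates). Igfbp4, which binds insulin-like growth factors, lay at 8.81, 9.17 and 10.04 with alloy and 7.17, 7.24 and 7.34 without metal, a change of 2.08 ± 0.17 (adjusted p = 2.5e-07), and the EGF receptor ligand Hbegf rose by 1.66 ± 0.08. Fgf7 lay at 7.41, 8.14 and 8.75 with alloy and 10.57, 10.67 and 10.82 without metal.

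Mitosis genes depended on which alloy arrays were read. Of 23 mitosis genes 11 were lower and 0 higher with a median of -0.34, but 6 higher, 8 lower and a median of -0.07 without the 3 replicates. The list median was -0.58 on replicate 1 and -0.88 on replicate 3, against 0.01 on replicate 5. Plk1, a kinase that drives mitosis, lay at 9.25, 10.54 and 11.24 with alloy and 11.24, 11.39 and 11.45 without metal, a change of -0.96 ± 0.26 (adjusted p = 0.00612) that shrank to -0.39 without these replicates. Nusap1, Cenpf and Cdca3 changed by -0.84, -0.84 and -0.74, and another probe for Cenpf gave -0.19. Of 27 DNA replication genes 6 were higher and 10 lower with a median of 0.02, against 9 higher, 8 lower and a median of 0.06 without the 3 replicates. The shares of all genes were 24.5% higher and 27.2% lower. Cdt1, which licenses origins, rose by 0.76 ± 0.08 and Mcm2 by 0.54 ± 0.08, and Gins2 changed by -0.52 ± 0.12.

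Among 18 p53 targets 7 were higher and 5 lower with a median of 0.13, but 6 higher, 6 lower and a median of -0.06 without the 3 replicates, where the median was on the other side of 0. The shares of all genes were 24.5% higher and 27.2% lower. Gadd45a, a stress gene that ATF4 and p53 both raise, lay at 10.45, 11.47 and 12.53 with alloy and 8.36, 8.53 and 8.61 without metal, a change of 2.92 ± 0.26 (adjusted p = 6.54e-07). Cdkn1a, the inhibitor p21, lay at 11.45, 11.67 and 11.97 with alloy and 10.87, 10.96 and 11.04 without metal, and changed by 0.73 ± 0.08 (adjusted p = 6.62e-06). Both were above the controls on all alloy arrays. Mdm2, the ligase for p53, rose by 0.43 ± 0.06 and Plk3 by 1.74 ± 0.14, while Sesn1 and Gadd45b changed by -1.63 ± 0.12 and -0.90 ± 0.09, with other probes at -0.24 and -0.33. Genes of the BCL2 family and caspases had 8 lower and 2 higher of 20 with a median of -0.21, against 5 higher, 9 lower and a median of -0.11 without the 3 replicates. Bmf and Bad, which promote death, changed by -0.88 and -0.56, Casp12 by -0.73 and the inhibitor Birc2 by -0.47, where another of its probes gave -0.17. Bmf was above background on 2 of the 6 alloy arrays.

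Of 18 quiescence and FOXO-linked genes 11 were lower and 4 higher with a median of -0.40 (4 higher, 10 lower and a median of -0.32 without the 3 replicates), led by Depp1, Mxd4, Sesn1 and Txnip, an inhibitor of thioredoxin (-0.86). Ribosome biogenesis genes went up, with 21 of 27 higher, 1 lower, a median of 0.50 (21 higher, 1 lower and a median of 0.47 without the 3 replicates) and medians of 0.40 to 0.57 on single alloy arrays. Noc3l, Rrp12, Ppan and Wdr74, of ribosome assembly, rose by 1.14, 1.01, 1.00 and 0.94. The ribosomal proteins themselves had 3 of 24 higher and 3 lower with a median of -0.000364 (4 higher, 3 lower and a median of 0.01 without the 3 replicates). Proteasome subunits had 12 of 27 higher and 0 lower with a median of 0.12 (9 higher, 0 lower and a median of 0.09 without the 3 replicates), all by less than 0.3 log2 units, and the 4 largest, Psmc5, Psmd4, Psmd11 and Psmd12, were not called under median scaling. Of 30 lysosome and autophagy genes 10 were higher and 5 lower with a median of 0.08 (9 higher, 10 lower and a median of 0.000777 without the 3 replicates). The protease gene Ctsl rose by 1.09, Npc1, which moves cholesterol out of lysosomes, by 1.04 and the proton pump subunit Atp6v1h by 0.84. Other probes gave 0.00 for Npc1 and 0.04 for Atp6v1h.

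The same genes on the arrays of cells under the pure metals can only be set beside these values, since the doses differ, and no difference between metals was tested. Means are given with the SD over 6 arrays. Tfrc averaged 10.65 ± 0.20 with alloy, 9.02 ± 0.16 with iron and 11.59 ± 0.12 with manganese, and 9.88 ± 0.15 without metal. For Hmox1 the means were 12.56 ± 1.04 with alloy, 9.40 ± 0.04 with iron, 11.53 ± 0.20 with manganese and 9.19 ± 0.11 without metal. Mvd had 7.95 ± 0.13 with alloy, 9.92 ± 0.08 with iron, 7.83 ± 0.14 with manganese and 9.87 ± 0.08 without metal. Cxcl12 stood at 10.11 ± 0.97 with alloy, 13.60 ± 0.11 with iron, 10.83 ± 0.21 with manganese and 13.68 ± 0.05 without metal. Ftl1 was at 13.74 ± 0.23 with alloy, 13.27 ± 0.06 with iron, 13.25 ± 0.04 with manganese and 13.16 ± 0.16 without metal. The 3 metals share the 6 control arrays.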

How the data were processed

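RNA of BALB/3T3 fibroblasts was hybridised to Illumina mouse bead arrays, 6 per group and 24 in all. The deposited non-normalised table holds 1 linear intensity per probe with no control probes or detection p-values, per the file headers. The deposited normalised tables hold log2 values that the authors normalised between arrays, and lumi and RMA appear without role or version per the submitters' processing notes. The non-normalised intensity values were corrected with normexp (offset 50) and quantile normalised over the 24 arrays, then put on the log2 scale. The 2 probe tables were joined by the rank of each probe within a symbol. A probe was above background on an array if it passed the upper 1% point of a normal curve fitted to the lower side of the intensity mode. Of 45281 probes 18742 passed on at least 6 of the 12 alloy and control arrays, and the brightest probe of a gene stood for it, giving 12473 genes. Gene names come from the platform annotation, updated through RefSeq, which gave 1 gene for 34885 probes, several for 18 and none for 10378, and 2552 genes tested without such a name are counted but not named.

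The 2 groups alone were fitted with limma 3.58.1 in R 4.3.3 (lmFit, eBayes, Benjamini-Hochberg adjustment over all genes), a procedure tested on simulated data. No batch is given in the labels, and the number of arrays limits the precision. Replicate numbers of the labels are shared by the groups, but deviations of arrays with the same number correlated by more than 0.1 in 1 of 6 pairs, so they were not treated as pairs. Members and gene lists were chosen with earlier results of these data known. Named genes are the 15 largest rises and falls among called genes without overlap, a set of genes of metal handling, stress, matrix and growth, the 4 largest changes among the called members of each list, and the 5 widest and 5 narrowest ranges over the alloy arrays among genes at least 2-fold changed. Where all arrays of a group were below background, the fold is a bound against the lowest signal above background on each array. Promoter sequences are from RefSeq, build GRCm38. Alternatives covered background correction, normalisation, the filter, the choice of probe, the model, the authors' own tables and leaving out arrays.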

Additional observations from a re-analysis of the deposited data

Results flagged for a closer look

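Of 402 sets of 6 arrays, formed by the 201 named genes in each of both groups, 18 held an array whose gap to its nearest neighbour was over 0.625 of the range of the set, where chance alone marks about 1 in 20. Among the alloy arrays, replicate 4 stood apart for Aldoa (13.46), Bmf (6.17), Gadd45b (7.21) and Lss (9.80), all as log2 intensities. Alloy replicate 3 stood apart for Ier3 (12.52), Lars2 (8.29) and Pdgfra (10.48), and alloy replicate 5 for Plaur (8.59). Among the control arrays, replicate 2 stood apart for Gadd45a (8.36), H2-T23 (9.31), Nqo1 (8.63) and Steap1 (8.91), and replicate 3 for Casp12 (7.41), Gsta4 (10.24), Mxd4 (11.54) and Plk1 (11.24). Control replicate 6 stood apart for Herpud1 (12.07) and control replicate 1 for Pdgfra (11.17). Pdgfra was thus marked in both groups, as the highest array of each. In all 18 cases the gene was called with all 12 arrays. Genes named for their change or range had to be called, so this follows in part from the choice.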

How the results depend on the processing

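Over the fits that leave out 1 array in turn, 5991 to 6650 genes passed the threshold, 2812 to 3138 higher and 3170 to 3517 lower, 485 to 671 were at least 2-fold changed, and 4430 to 4830 genes were without overlap. A replicate block gave 6254 calls, 2950 higher and 3304 lower, with 1 of 6 alloy arrays correlating best with its own number. A test against a 1.2-fold minimum (limma's treat) left 2366 calls, 1094 higher and 1272 lower. Median scaling gave 1453 genes higher and no normalisation 1038, with 431 at least 2-fold lower. At least 2-fold changes, 585 with the reported settings, numbered 189 (76 lower) with the authors' normalised values per gene, 162 (64 lower) with their normalised values per probe, and 353 (199 higher, 154 lower) without alloy replicates 1, 3 and 4. With the mean of the probes kept, Gpx4 turned to 0.29 and Slc40a1 to 0.69. The median of the iron list was -0.0259 after median scaling and -0.0714 with no normalisation, that of the mitochondrial tRNA synthetases -0.105 and -0.151, and that of the heat shock proteins -0.0232 and -0.0687. The median of the macrophage markers, -0.12 with the reported settings, turned to 0.32 among genes above background on all 12 arrays. It was 0.0408 in the authors' normalised gene table and 0.0462 in their probe table. That of the osteochondral markers, 0.10 with the reported settings, turned to -1.08 among genes above background on all 12 arrays, where fewer members were tested. The cause was not tested for the other changes. Named genes lost their call most often under the 1.2-fold minimum, no normalisation and median scaling. Probes near background, as for Ccl4, Dnmt3l and Bglap, limit what a fold can say.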
